A study of Arabidopsis thaliana with 8 samples.

Results

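The response of Arabidopsis thaliana roots to iron deficiency was compared between wild type and the pye-1 mutant as a genotype by iron interaction. For each probe set the change of pye-1 (without iron minus with iron) had the change of wild type subtracted from it, on log2 signal. All 8 of the 8 arrays of the study entered this comparison, chosen by the genotype and medium in their titles. There were 4 groups with 2 arrays each: wild type with iron (WT +Fe), wild type without iron (WT -Fe), pye-1 with iron (pye +Fe) and pye-1 without iron (pye -Fe). All plants were of the Columbia ecotype and 7 days old, had grown on a standard medium in which Fe(III)-EDTA replaced ferrous sulfate, and spent their last 24 h on the +Fe or -Fe medium. The -Fe medium held 0.3 mM ferrozine, a compound that binds ferrous iron. Each replicate was whole roots, about 320 of them, cut below the hypocotyl, and the labels call the replicates biological. The mutant is represented by the allele pye-1 alone.

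POPEYE (PYE) is a basic helix-loop-helix transcription factor that rises in iron-deficient roots, where it is known chiefly from the pericycle, and it is known to hold down genes of metal transport and storage. It works beside a second branch of the iron response in which the factor FIT turns on the uptake genes of the root surface, such as those for coumarin synthesis. BRUTUS-like ubiquitin ligases and the IRONMAN peptides act above both branches. A positive interaction means that a transcript was relatively higher in iron-deficient pye-1 than the response of wild type would give, and a negative one that it was relatively lower. Whole roots were measured, so fewer cells of a type and less RNA per cell cannot be told apart in any value below.

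The signals are 1-colour MAS5 intensities of an Affymetrix Arabidopsis array, on a linear scale with 1 value per probe set. The median signal was 91.4 to 97.6 on the 8 arrays. The control level, an estimate of the signal of an absent transcript, was set on each array by the brightest of 27 bacterial control probe sets and was 11.7 to 23.7. On log2 signal, correlations were 0.975 to 0.981 within a group and 0.957 to 0.979 between groups. The 25S ribosomal RNA control differed with the replicate number in all 4 groups (242 to 565 in replicate 1, 1691 to 4047 in replicate 2), and the fit kept the replicate number as a block. The labels do not say what a shared replicate number stands for. The number of arrays limits the precision: the median 95% interval of the interaction over the tested probe sets was ± 0.47 log2.

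PYE itself was the check of the labels. Its signal was 56.7 and 65.1 in WT +Fe and 138 and 149 in WT -Fe, against 19.1 and 15.0 in pye +Fe and 25.0 and 28.2 in pye -Fe. All 4 pye-1 arrays lay below all 4 wild-type arrays. The transcript rose by 1.24 log2 in wild type (limma adjusted p = 0.0384). In pye-1 its change was 0.65 log2 at a low level and did not pass (adjusted p = 0.331). The interaction of PYE was -0.59 ± 0.41 log2 (SE), with a 95% interval of -1.49 to 0.30, and did not pass (adjusted p = 0.631).

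The iron response differed between the genotypes in 56 of 15922 tested probe sets, 0.352% (limma with the replicate block, Benjamini-Hochberg adjusted p under 0.05). The interaction was higher in pye-1 for 40 of them (0.251% of those tested) and lower for 16 (0.100%). At an unadjusted p under 0.05 there were 1790. The sizes of the 56 ran from 0.68 to 3.67 log2 with a median of 1.34, beside a median of -0.04 for the signed interaction over all tested probe sets. Of the 56, 25 name 1 gene (20 higher and 5 lower) and 31 have no gene name in the annotation used here. The count rests on the model: without the replicate block it was 14, all of them among the 56, and without the intensity trend in limma's variance it was 0, with a lowest adjusted p of 0.135 and 1517 probe sets at an unadjusted p under 0.05. It also moved with single arrays, to 13 without pye +Fe replicate 2, 24 without pye +Fe replicate 1, 25 without WT -Fe replicate 1 and 133 without WT +Fe replicate 2, and to between 39 and 52 when any 1 of the other 4 arrays was left out. Of the 56, 13 passed in all 8 fits that left out 1 array and also without the block. These 13 were AT5G51010, AT4G27450, AT1G19530, AT1G33055, BCAT4 and 8 probe sets without a gene name. They include probe-253502_at, the one called probe set whose direction turned in an alternative, from -3.06 to 0.65 log2 (adjusted p = 0.491) when dim signals were set to the control level.

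Most of the differing responses were seen in the mutant without iron. Over all tested probe sets the genotypes differed in 273 without iron (1.71%) and in 55 with iron (0.345%). Of the 40 higher probe sets, 33 were higher in pye-1 than in wild type without iron and did not pass with iron. Of the 16 lower ones, 10 were lower in pye-1 without iron and did not pass with iron. Both pye -Fe arrays lay above the other 6 arrays in 29 of the 40, where 4.40% of all tested probe sets did so, and below them in 11 of the 16, against 6.07% of all tested. The interaction is built from the same arrays, so these counts describe it and are no separate evidence.

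The higher probe sets fell into 5 patterns. The most frequent, with 19 members, was a rise in pye-1 with no passing change in wild type. A further 8 fell in wild type with no passing change in pye-1, 6 fell in wild type and rose in pye-1, 4 rose in both genotypes, and 3 fell in both. Among the lower probe sets, 8 fell in pye-1 with no passing change in wild type, 4 rose in wild type and fell in pye-1, 2 rose in wild type alone, and 2 rose in both. With all tested probe sets as background, iron deficiency changed 485 in wild type (3.05%), with 250 higher (1.57%) and 235 lower (1.48%). It changed 422 in pye-1 (2.65%), with 269 higher (1.69%) and 153 lower (0.961%). Of the 485, 456 did not pass the interaction test. As the interaction uses the same 4 wild-type arrays, the remaining 29 are given only as a description: 17 had fallen in wild type and had a higher interaction, 8 had risen and had a lower one, and 4 had risen and had a higher one.

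**Figure D1:**
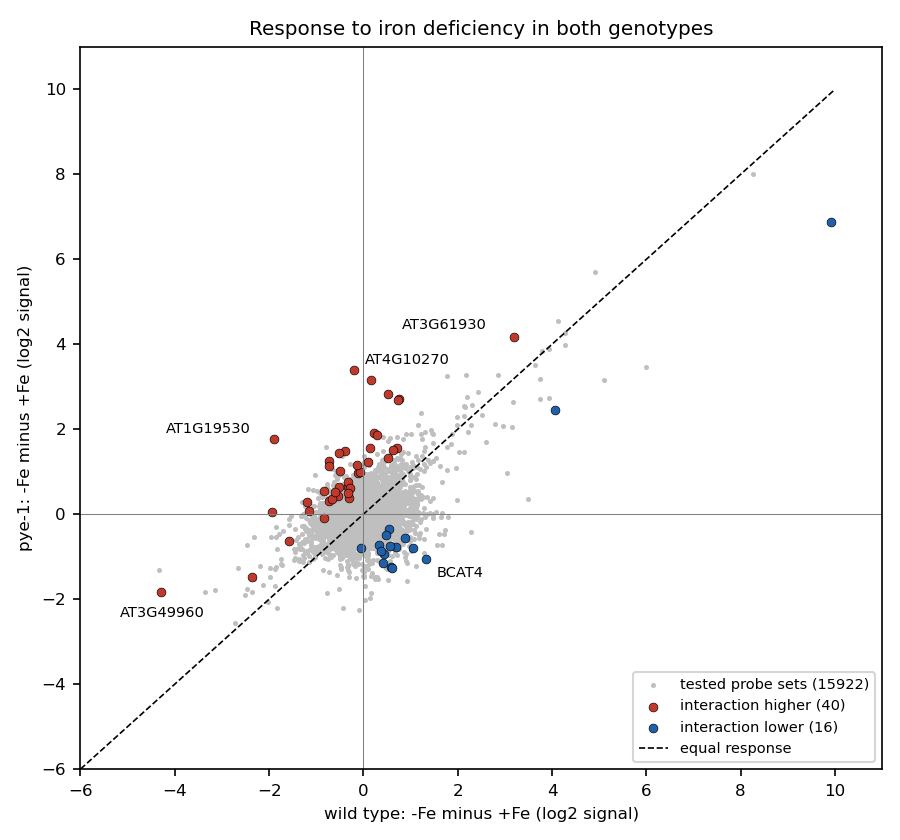
Change without iron against with iron in pye-1 (vertical axis, log2 signal) plotted against the same change in wild type (horizontal axis, log2 signal), 1 point per tested probe set, grey for all 15922. The dashed line marks equal responses, and the 40 higher (red) and 16 lower (blue) probe sets lie above and below it. The 3 red ones with a passing fall in both genotypes lie in the lower left. The blue point farthest to the upper right is probe-253502_at, whose +Fe signals were all at or under the control level.

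**Figure D2:**
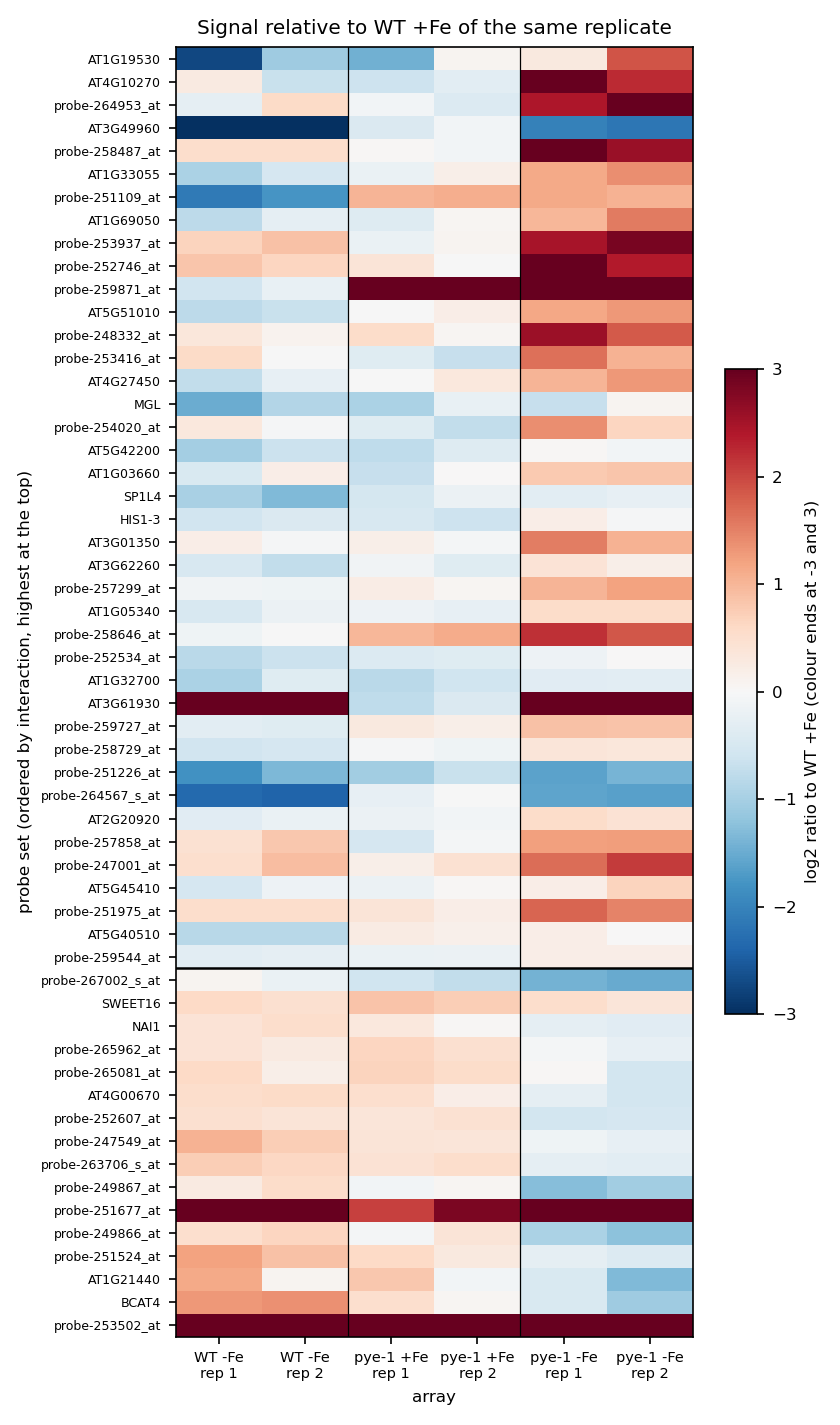
Log2 signal of the 56 probe sets that passed the interaction test (rows, in order of the interaction) on 6 arrays (columns), each relative to the WT +Fe array of the same replicate number, with colours ending at -3 and 3. Above the black line, where the 40 higher ones stand, the 2 pye -Fe columns are mostly the reddest, and below it, for the 16 lower ones, mostly the bluest.

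Genes known to be induced in low oxygen made up the most prominent named group among the higher probe sets. AT1G33055, a small protein of the core low-oxygen response, gave 475 and 408 in WT +Fe, 244 and 288 in WT -Fe, 417 and 465 in pye +Fe and 1043 and 1071 in pye -Fe. Both genotypes had like signals with iron, wild type then fell and pye-1 rose, and none of the groups without iron overlapped with those with iron. Its interaction was 2.00 ± 0.17 log2 (SE, adjusted p = 0.000354), from a change of -0.73 in wild type and 1.26 in pye-1.

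AT1G19530, another low-oxygen gene, had the highest interaction of all tested probe sets at 3.67 ± 0.42 log2 (adjusted p = 0.00151). Its signals were 847 and 370.2 in WT +Fe, 127 and 178 in WT -Fe, 312 and 390.2 in pye +Fe and 1033 and 1380.3 in pye -Fe. The WT +Fe arrays lay far apart, and the interaction was 4.47 and 2.88 log2 in replicates 1 and 2. The direction was the same in both, with the WT -Fe arrays lowest and the pye -Fe arrays highest.

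AT4G27450, an aluminium-induced-like protein of the same response, was measured at 778 and 651 in WT +Fe, 467 and 553 in WT -Fe, 771 and 817 in pye +Fe and 1583 and 1615 in pye -Fe. It fell in wild type by 0.49 log2 and rose in pye-1 by 1.01, an interaction of 1.50 ± 0.16 (adjusted p = 0.00112). AT4G10270, of the wound-responsive family, was dim except in pye -Fe: 14.3 and 27.5 in WT +Fe, 17.3 and 17.3 in WT -Fe, 9.34 and 22.2 in pye +Fe and 178 and 129 in pye -Fe. The other 6 arrays lay between 9.34 and 27.5, and 3 of them were at or under the control level. Its interaction was 3.59 ± 0.65 log2 (adjusted p = 0.0399) and 3.13 with dim signals raised to the control level. It missed the threshold in every fit that left out 1 array (adjusted p up to 0.201). The mean of its other 6 arrays, 17.0, lay under the 23.3 needed to be tested, so it was tested through its pye -Fe signals, and without that filter it missed (adjusted p = 0.132).

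The list of low-oxygen genes holds 35 loci, of which 17 have a named probe set and 13 were tested. Of these 13, 4 passed with a higher interaction, beside 0.251% of all tested probe sets, and 0 passed with a lower one. The median interaction of the 13 was 0.86 log2 (0.87 in replicate 1 and 0.70 in replicate 2), beside -0.04 over all tested probe sets. The filter on dim probe sets left out 4 of the 17 and kept AT4G10270 and AT2G17850 through their pye -Fe signals. Over all 17 without the filter, a setting added after seeing the data, the median was 0.93 log2 and 16 were positive, beside 10136 of 22746 probe sets. The exception was AT5G10040 at -0.76 (adjusted p = 0.88), with a mean signal of 11.7. In limma without the filter AT1G33055, AT4G27450 and AT1G19530 passed and no other member did, with AT4G10270 at an adjusted p of 0.132. The 4 that the filter left out were dim, with mean signals of 5.19 to 22.2. The list was compiled with the leading genes of these arrays known, so its counts describe it and are not independent evidence. The median response of the list was -0.20 log2 in wild type and 0.95 in pye-1. In wild type 1 member rose and 3 fell, beside 1.57% and 1.48% of all tested probe sets. In pye-1 7 rose and 0 fell, beside 1.69% and 0.961%.

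Besides the 4 that passed the interaction test, AT3G03270, AT5G66985 and AT3G27220 rose in pye-1. AT3G03270, the hypoxia-responsive universal stress protein HRU1, went from 394 and 418 to 1107 and 889 in pye-1 and from 299 and 342 to 469 and 396 in wild type. It rose by 1.29 log2 in pye-1 (adjusted p = 8.01e-05) with an interaction of 0.86 and a 95% interval of 0.45 to 1.27 that did not pass (adjusted p = 0.0933). AT5G66985 rose in both genotypes, by 0.66 log2 in wild type and 1.28 in pye-1, with an interaction of 0.63 (adjusted p = 0.15). AT3G27220, a kelch-repeat protein, rose in pye-1 by 0.95 log2, with an interaction of 0.83 (adjusted p = 0.343). PDC2, a pyruvate decarboxylase of ethanol fermentation, had an interaction of 0.29 log2 (95% interval -0.05 to 0.63) and did not pass in either genotype. The summed signal of the 17 probe sets of the list was 4476 to 5548 in WT +Fe, 4040 to 4141 in WT -Fe, 4836 to 4991 in pye +Fe and 8869 to 9124 in pye -Fe.

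**Figure D3:**
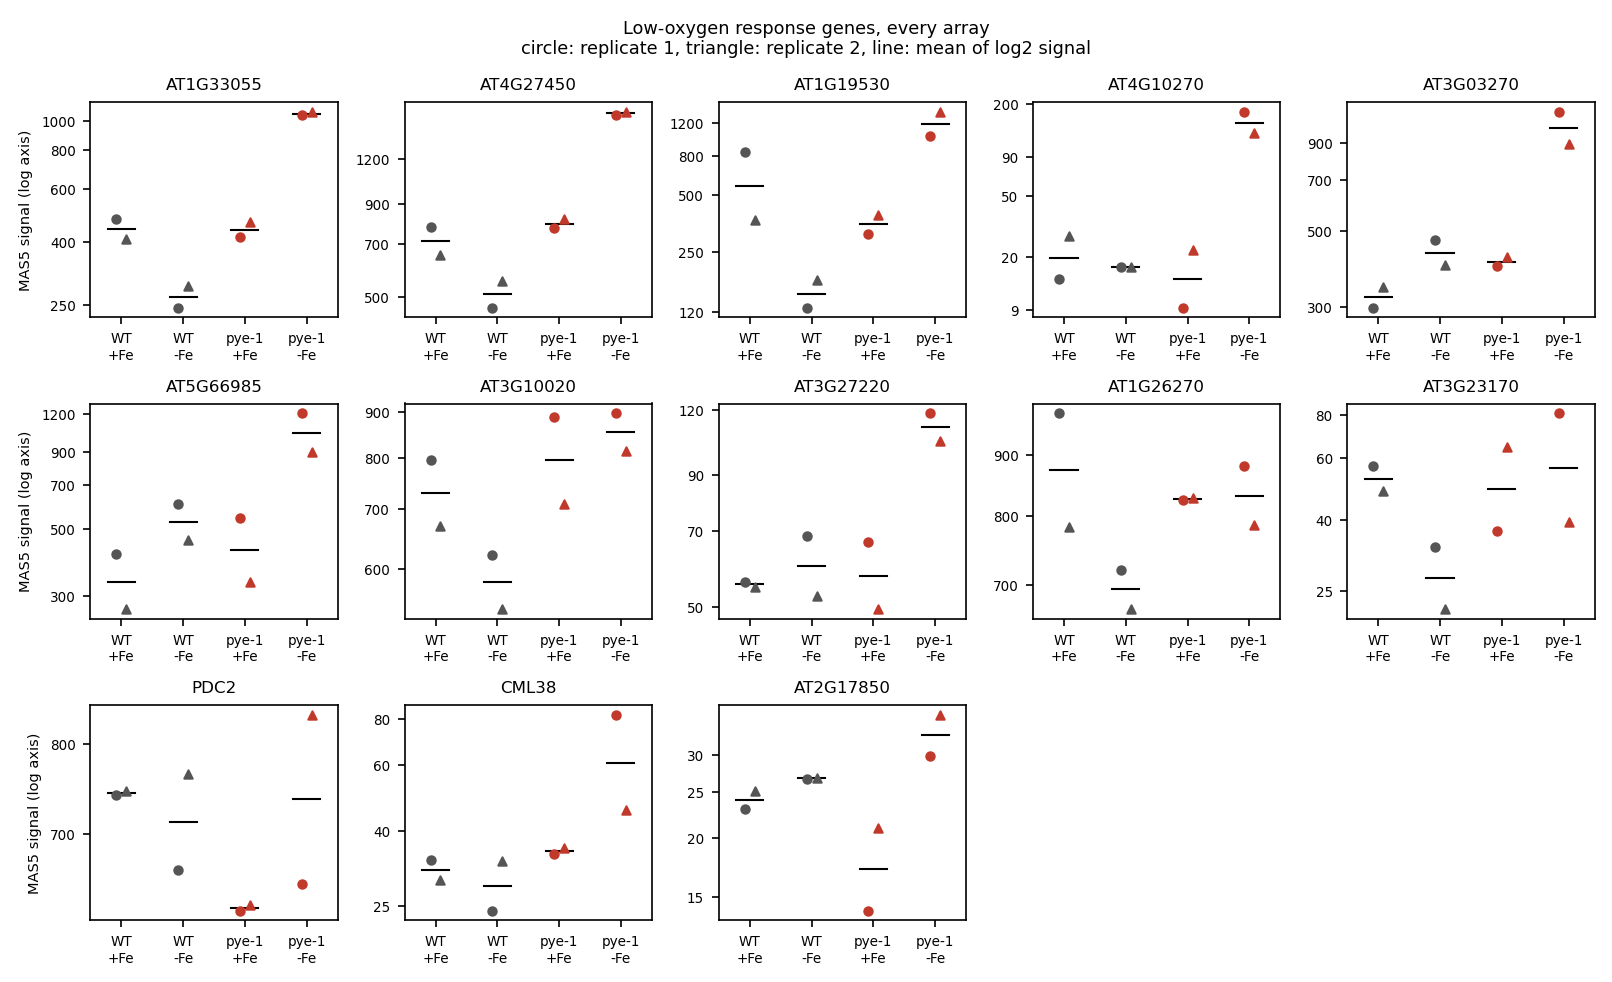
MAS5 signal (log axis, a scale of its own in each panel) of the 13 tested low-oxygen genes in the 4 groups, with a circle for replicate 1, a triangle for replicate 2 and a line at the mean of log2 signal. In AT1G33055, AT4G27450, AT1G19530 and AT4G10270, which passed the interaction test, the pye -Fe arrays are the highest of the 8.

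Other named genes with a higher interaction had varied roles. AT5G51010, a rubredoxin-like protein, an iron-binding fold, gave 134 and 148 in WT +Fe, 77.9 and 92.8 in WT -Fe, 133 and 169.7 in pye +Fe and 301 and 367 in pye -Fe. Wild type fell by 0.73 log2 and pye-1 rose by 1.15, and the interaction of 1.87 ± 0.20 (adjusted p = 0.00112) passed in every fit that left out 1 array. HIS1-3 (AT2G18050), a stress-inducible linker histone, was 1554 and 1236 in WT +Fe, 1036 and 917 in WT -Fe, 1109 and 798 in pye +Fe and 1782 and 1211 in pye -Fe. It was lower in pye-1 with iron (-0.56 log2, adjusted p = 0.0456) and higher without iron (0.59, adjusted p = 0.0113), an interaction of 1.15 ± 0.15 (adjusted p = 0.00417). AT1G05340, a small cysteine-rich membrane protein known from stress responses, rose in pye-1 by 0.75 log2 with an interaction of 1.07 ± 0.15 (adjusted p = 0.00817).

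MGL (AT1G64660), methionine gamma-lyase, which breaks methionine down, fell in wild type from 774 and 783 to 275 and 423. In pye-1 its signal was 404 and 668 in pye +Fe and 481 and 826 in pye -Fe. The replicates of pye-1 differed more from each other than the media did, and its change of 0.28 log2 did not pass (adjusted p = 0.459). The interaction was 1.47 ± 0.22 log2 (adjusted p = 0.0129), and it passed in 4 of the 8 fits that left out 1 array, with an adjusted p up to 0.169. SP1L4 (AT5G15600), of the SPIRAL1-like family that acts on cortical microtubules, showed a fall of 1.14 log2 in wild type beside a change of 0.07 in pye-1, an interaction of 1.21 ± 0.21 (adjusted p = 0.0285). Without the replicate block SP1L4 missed the threshold in limma (adjusted p = 0.224). AT5G40510, a sucrase and ferredoxin-like protein, fell in wild type from 923 and 1002 to 522 and 561 and was 1095 and 1118 and then 1068 and 1015 in pye-1. Its interaction of 0.74 ± 0.13 log2 (adjusted p = 0.0399) missed in every fit that left out 1 array.

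AT3G61930, an uncharacterised gene, was the named example of a transcript that rose in both genotypes and more so in the mutant. It went from 129.9 and 121 to 1129.5 and 1179 in wild type and from 76.0 and 89.2 to 1488 and 1484 in pye-1, rises of 3.20 and 4.17 log2. The groups without iron were close (0.36 log2, adjusted p = 0.195), and the pye +Fe arrays were the lowest of the 8. The interaction of 0.97 ± 0.17 (adjusted p = 0.0292) passed in 1 of the 8 fits that left out 1 array.

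The other 8 named genes with a higher interaction had values from 0.83 log2 for AT5G45410 to 1.97 for AT1G69050. AT1G69050 went from 59.7 and 83.8 to 156 and 239 in pye-1 (adjusted p of the interaction 0.0104). AT5G42200, a RING-type protein of the ATL family, had an interaction of 1.38, AT1G03660 of 1.29, and AT3G01350, of the peptide-transporter family, of 1.15. AT3G62260, of the protein phosphatase 2C family, had 1.12, AT1G32700, of the PLATZ zinc-binding family, 1.02, and AT2G20920 0.89 log2. Their adjusted p-values were 0.0243 for AT5G42200, 0.0292 for AT3G01350 and 0.0399 to 0.0481 for AT2G20920, AT1G32700, AT5G45410, AT3G62260 and AT1G03660. Each of these 8 missed the threshold in at least 4 of the 8 fits that left out 1 array.

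AT3G49960, a class III peroxidase of the cell wall listed with root hair genes, had the largest fall in wild type among the 56. Its signals were 312 and 346 in WT +Fe, 10.9 and 25.9 in WT -Fe, 230.0 and 326 in pye +Fe and 76.2 and 77.6 in pye -Fe. It fell by 4.29 log2 in wild type and by 1.83 in pye-1. The difference between the genotypes did not pass with iron (-0.26 log2, adjusted p = 0.794), and without iron the mutant was 2.19 higher (adjusted p = 0.000539). The interaction was 2.46 ± 0.36 log2 (adjusted p = 0.0104), 3.25 and 1.67 in replicates 1 and 2, and 2.34 with the 1 array at the control level raised to it. It passed in 5 of the 8 fits that left out 1 array, with an adjusted p up to 0.152 without pye +Fe replicate 1.

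The root hair and cell wall list has 18 loci, of which 5 were tested. In each genotype 4 of the 5 fell without iron, beside 1.48% of all tested probe sets in wild type and 0.961% in pye-1. The summed signal of the 5 was 2962 to 3444 in WT +Fe, 1438 to 1561 in WT -Fe, 2816 to 2915 in pye +Fe and 1542 to 1675 in pye -Fe. Of the 5, AT3G49960 passed with a higher interaction, beside 0.251% of all tested probe sets. The median interaction of the 5 was 0.35 log2 beside -0.04 over all tested probe sets. As the list was chosen with earlier results of these data known, these counts and the median describe it and are not independent evidence. AT1G34510, another peroxidase, fell from 285 and 202 to 28.4 and 25.9 in wild type and from 155 and 76.3 to 29.3 and 33.7 in pye-1. Its interaction of 1.35 (95% interval 0.50 to 2.21) did not pass (adjusted p = 0.227). EXPA7 and EXPA18, expansins of root hair cells, had interactions of 0.19 and 0.35 log2 that did not pass (adjusted p = 0.693 and 0.441). AT4G26010, also a peroxidase, fell by 1.07 log2 in wild type and by 1.05 in pye-1, an interaction of 0.03 with a 95% interval of -0.27 to 0.32.

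Among the lower probe sets the leading named gene was BCAT4 (AT3G19710), the aminotransferase that opens the chain elongation of methionine towards glucosinolates. Its signals were 115 and 111 in WT +Fe, 282 and 286 in WT -Fe, 162 and 116 in pye +Fe and 84.0 and 52.6 in pye -Fe. The WT -Fe arrays were the highest and the pye -Fe arrays the lowest of the 8. BCAT4 rose by 1.34 log2 in wild type (adjusted p = 0.00155) and fell by 1.05 in pye-1 (adjusted p = 0.0102), an interaction of -2.38 ± 0.27 (adjusted p = 0.00143) that passed in all 8 fits that left out 1 array.

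Of 20 loci in the list of methionine-derived glucosinolate genes, 2 were tested. The other was AT2G31790, the glucosyltransferase UGT74C1 of the same pathway, which went from 115 and 112 to 181 and 154 in wild type and from 101 and 118 to 76.2 and 57.8 in pye-1. As in BCAT4, its WT -Fe arrays were the highest and its pye -Fe arrays the lowest. Its interaction was -1.27 ± 0.27 log2 with a 95% interval of -1.86 to -0.69 (adjusted p = 0.0843, not past). This list too was compiled with the leading genes known. NAI1 (AT2G22770), the basic helix-loop-helix factor needed for endoplasmic reticulum bodies, gave 441 and 404 in WT +Fe, 589.9 and 579.9 in WT -Fe, 549.6 and 417 in pye +Fe and 367 and 319.6 in pye -Fe. It was lower in pye-1 without iron (-0.77 log2, adjusted p = 0.00401) and its interaction was -0.95 ± 0.16 (adjusted p = 0.0295).

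SWEET16 (AT3G16690), a vacuolar sugar transporter, was the one of the 5 named lower genes whose genotypes differed with iron and did not pass without it. It was 303 and 455 in WT +Fe, 459.5 and 636 in WT -Fe, 549 and 761 in pye +Fe and 436 and 585 in pye -Fe. Replicate 2 was higher than replicate 1 in every group, and within each replicate number the signal without iron was higher in wild type and lower in pye-1. The rise in wild type passed (adjusted p = 0.0121) and the change in pye-1 did not (adjusted p = 0.107). The mutant was 0.80 log2 higher with iron (adjusted p = 0.00526), and the difference without iron was -0.10 (adjusted p = 0.776). The interaction of -0.90 ± 0.15 (adjusted p = 0.0205) had an adjusted p of 0.842 without the replicate block.

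AT1G21440, of the phosphoenolpyruvate mutase and isocitrate lyase family, went from 277 and 423 to 607 and 449 in wild type and fell in pye-1 from 487 and 399 to 201 and 168. The pye -Fe arrays were the lowest, the other 6 ran from 277 to 607, and the interaction was -1.87 ± 0.28 log2 (adjusted p = 0.0124). AT4G00670, of the remorin family of plasma membrane proteins, fell in pye-1 by 0.75 log2 with an interaction of -1.31 ± 0.23 (adjusted p = 0.0355). NAI1 and AT4G00670 each passed in 1 of the 8 fits that left out 1 array, SWEET16 in 2 and AT1G21440 in 5.

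Next in order of p among the named genes with a negative interaction, and not past the threshold, stood AT1G47400, AT3G16370, GSTU20, AT4G12500 and AT4G22212. GSTU20, a tau-class glutathione S-transferase, went from 51.1 and 60.0 to 109.9 and 111 in wild type and from 76.9 and 73.6 to 55.8 and 47.9 in pye-1, an interaction of -1.54 log2 with a 95% interval of -2.21 to -0.87 (adjusted p = 0.0713). AT4G12500, a lipid-transfer-like protein, rose in wild type from 28.5 and 39.3 to 87.8 and 152 and was 59.8 and 57.0 and 54.4 and 56.8 in pye-1 (interaction -1.86, adjusted p = 0.0754). AT3G16370, of the GDSL lipase family, had an interaction of -1.43 (adjusted p = 0.0674), and AT4G22212, a defensin-like protein, -0.81 (adjusted p = 0.0773).

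**Figure D4:**
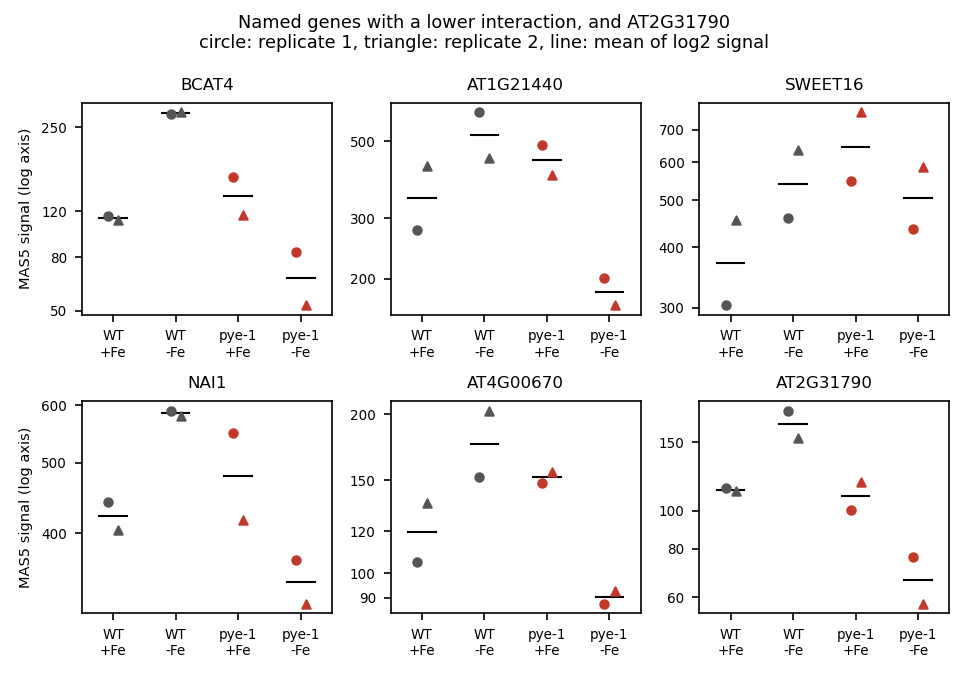
MAS5 signal (log axis, a scale of its own in each panel) of the 5 named genes with a lower interaction and of AT2G31790, which did not pass, in the 4 groups, with a circle for replicate 1, a triangle for replicate 2 and a line at the mean of log2 signal. The pye -Fe arrays are the lowest of the 8 in BCAT4, AT1G21440, NAI1, AT4G00670 and AT2G31790, and in SWEET16 the WT +Fe mean is the lowest.

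Most of the tested genes of the iron uptake list rose in both genotypes, and none passed the interaction test. Of 20 loci in the list of genes that depend mostly on FIT, 6 have a named probe set and all 6 were tested. They are AT3G13610, AT3G12900, BGLU42, AT1G28680, AT3G07720 and AT3G58060. The other loci of the list have no named probe set and were not tested, so nothing is said here of iron uptake as a whole. In wild type 6 of 6 rose, beside 1.57% of all tested probe sets, and in pye-1 5 of 6, beside 1.69%. The median responses of the 6 were 2.96 log2 and 3.08. With limma, 0 of 6 passed the interaction test, beside 0.352% of all tested probe sets. At such a share 0 of 6 does not set these genes apart. AT3G13610 alone had an unadjusted p under 0.05, as did 1790 of all 15922. The median interaction was 0.12 log2, with single values from -0.26 to 0.56. A p that misses the threshold does not show equal responses, so the intervals are given for each.

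AT3G12900, the scopoletin hydroxylase S8H of coumarin synthesis, had the largest response, from 2.88 and 4.44 to 1018 and 1200.4 in wild type and from 5.40 and 12.5 to 1855 and 2409.9 in pye-1. All 4 +Fe arrays were at or under the control level, so the sizes of the responses depend on values at the control level, and its interaction of -0.26 log2 (95% interval -0.98 to 0.45) does too. The interaction was 0.60 on log2 of the signal plus 16 (adjusted p = 0.255) and 1.27 with dim signals set to the control level (adjusted p = 0.128), so no direction is read from it. AT3G13610, the feruloyl-CoA hydroxylase F6'H1 that opens coumarin synthesis, went from 3113 and 2507 to 4534 and 4986 in wild type and from 3138 and 1931 to 6294 and 6077 in pye-1. Its interaction of 0.56 had a 95% interval of 0.11 to 1.02 and an adjusted p of 0.339.

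BGLU42, a beta-glucosidase that releases coumarins, rose from 258 and 279.8 to 1237 and 1124 in wild type and from 264 and 257 to 1241 and 1363 in pye-1. Its interaction was 0.19 log2 with a 95% interval of -0.14 to 0.52. AT1G28680, the coumarin synthase COSY, had an interaction of -0.07 (95% interval -0.40 to 0.27), with a passing rise of 0.50 log2 in wild type and a change of 0.44 in pye-1 that did not pass (adjusted p = 0.0595). AT3G07720, a kelch-repeat protein, rose by 3.79 and 3.85 log2, with an interaction of 0.06 and a 95% interval of -0.43 to 0.54. AT3G58060, the vacuolar manganese transporter MTP8, rose by 4.13 and 4.54 log2, but its interval of -0.80 to 1.62 was the widest of the 6, with 2 arrays at the control level.

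Of 17 loci among regulators of the iron response, 10 were tested with 11 probe sets. In limma 0 of 11 passed the interaction test, beside 0.352% of all tested probe sets. An unadjusted p under 0.05 was found for 1, AT1G47400, and for 1790 of all 15922. Neither count sets these genes apart. The median interaction was -0.07 log2, beside -0.04 over all tested probe sets. AT1G47400 is the IRONMAN peptide IMA1. Its signals were 45.3 and 39.1 in WT +Fe, 570.1 and 561 in WT -Fe, 226 and 216 in pye +Fe and 1783 and 1186 in pye -Fe. No groups overlapped, and the mutant was higher on both media, by 2.39 log2 with iron and 1.36 without (adjusted p = 6.48e-06 and 0.000314). IMA1 rose by 3.75 in wild type and 2.72 in pye-1, and the interaction of -1.03 ± 0.20 (95% interval -1.47 to -0.58) missed the threshold (adjusted p = 0.0666). It passed in 1 of its 15 alternatives, without pye -Fe replicate 1 (adjusted p = 0.0283), and in the others its adjusted p ran from 0.0606 to 0.521, with a value of -0.69 on log2 of the signal plus 16.

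BHLH101, another helix-loop-helix factor active in iron-deficient roots, was likewise higher in pye-1 on both media, at 42.1 and 20.2 in WT +Fe, 343 and 380.3 in WT -Fe, 74.5 and 83.3 in pye +Fe and 959 and 849 in pye -Fe. The genotypes differed by 1.43 log2 with iron (adjusted p = 0.0262) and 1.32 without (adjusted p = 0.0145). Its rises of 3.63 and 3.52 log2 gave an interaction of -0.11 with a wide 95% interval of -0.86 to 0.63. The interaction was 0.66 and -0.89 in replicates 1 and 2. WT +Fe replicate 2 of BHLH101 lay under the control level of its array (23.7), so its difference with iron depends on a value at that level. With dim signals raised to the control level the interaction was 0.0036. AT1G74770 (BTSL1), a BRUTUS-like ubiquitin ligase, has 2 tested probe sets. The brighter rose by 1.98 log2 in wild type and 2.10 in pye-1, and the dimmer by 2.29 and 2.10. Their interactions were 0.12 (95% interval -0.22 to 0.45) and -0.19 (-0.97 to 0.59). AT1G18910 (BTSL2) rose by 0.89 and 1.18 log2, with an interaction of 0.29 (95% interval -0.04 to 0.63).

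The partner and upstream factors of PYE showed no passing iron response in either genotype. ILR3, which pairs with PYE, had an interaction of 0.13 log2 (95% interval -0.18 to 0.44), bHLH104 0.26 (-0.04 to 0.57), bHLH115 -0.11 (-0.40 to 0.17), bHLH34 -0.07 (-0.70 to 0.56) and bHLH121 0.14 (-0.20 to 0.48). The list of PYE targets and the list of nicotianamine and vascular iron transport have no named probe set in the annotation used here and are not analysed.

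**Figure D5:**
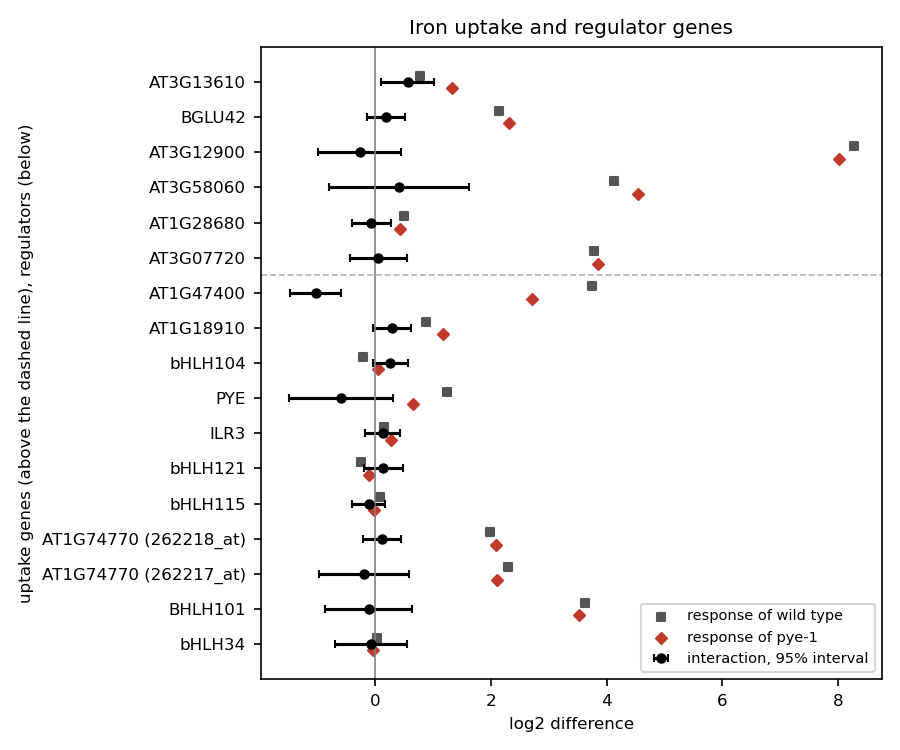
Log2 change without iron against with iron in wild type (grey squares) and pye-1 (red diamonds), and the interaction with its 95% interval (black), for 6 uptake genes above the dashed line and 11 probe sets of 10 regulators below it. The responses of AT3G12900, farthest to the right, depend on +Fe signals at the control level. The interaction of AT1G47400 is plotted at -1.03 log2.

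Probe sets without a gene name are given by their array ID. Probe-251109_at had the smallest p, with 1039 and 1055 in WT +Fe, 237 and 311 in WT -Fe, 2104 and 2256 in pye +Fe and 2300.2 and 2187 in pye -Fe. It fell in wild type alone, and the pye-1 arrays on both media were above all wild-type arrays, with an interaction of 1.99 ± 0.16 log2 (adjusted p = 0.000299). Probe-259871_at was far brighter in pye-1 on both media, at 105 and 76.0 and then 69.8 and 65.3 in wild type and 1207 and 1088 and then 3676 and 2774 in pye-1. It rose further without iron in pye-1 alone, an interaction of 1.88 ± 0.17 (adjusted p = 0.000354).

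Probe-258487_at was even over the other 3 groups, between 88.8 and 153.8, and reached 720.2 and 643 in pye -Fe, an interaction of 2.30 ± 0.22 log2 (adjusted p = 0.000354). Probe-248332_at had the same form, with 1111 and 819 in pye -Fe against 188.7 to 275.5 elsewhere and an interaction of 1.68 (adjusted p = 0.00433). Probe-259727_at rose in pye-1 from 1322 and 1199 to 1991 and 1918, an interaction of 0.97 (adjusted p = 0.00417).

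On the lower side, probe-252607_at gave 1774 and 1740.2 in WT +Fe, 2473 and 2264 in WT -Fe, 2271 and 2376 in pye +Fe and 1210.1 and 1227 in pye -Fe, an interaction of -1.36 ± 0.12 log2 (adjusted p = 0.000354). Its pye -Fe arrays alone stood below all others. Probe-249867_at (-1.57, adjusted p = 0.000354) had this form too, at 324 and 335 in pye -Fe against 691.5 to 1016 elsewhere. Probe-263706_s_at (-1.46, adjusted p = 0.000768) and probe-251524_at (-1.83, adjusted p = 0.00112) rose in wild type and fell in pye-1.

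Probe-253502_at had the most negative interaction of the 56, -3.06 ± 0.33 log2 (adjusted p = 0.00112), but it rests on signals that were not above background. It was 0.994 and 1.21 in WT +Fe and 11.4 and 11.3 in pye +Fe, all at or under the control level, and 936 and 1218 in WT -Fe and 1113 and 1575 in pye -Fe. The bright arrays of both genotypes were close (0.31 log2, adjusted p = 0.663), and raising dim signals to that level turned the interaction to 0.65, which did not pass (adjusted p = 0.491). No direction is read from it.

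The remaining lists had 0 calls in limma, beside 0.352% of all tested probe sets, and their leading members are given as values. Of the members tested in them, SAPX, HSA32 and 3 stress genes had an unadjusted p under 0.05, as did 1790 of all 15922. SAPX, the stromal ascorbate peroxidase, a heme enzyme, fell in wild type from 969 and 957 to 550.5 and 492 and was 1115 and 1115 and then 914 and 908 in pye-1. Its interaction was 0.60 ± 0.13 log2 (95% interval 0.31 to 0.89, adjusted p = 0.103). It was the 1 tested member of 13 loci of iron storage and iron-using proteins. Of 7 tested genes of oxidative and mitochondrial stress, 0 passed, with 3 at an unadjusted p under 0.05 and a median of 0.24 log2. AT2G21640 (UPOX), induced by oxidative stress, rose in pye-1 by 1.79 log2, with signals of 199.6 and 153 in pye -Fe against 29.3 to 66.5 elsewhere and an interaction of 1.23 (adjusted p = 0.262). AT2G41730 rose in both genotypes, by 0.73 and 1.31 log2, with an interaction of 0.58 (adjusted p = 0.294). AT5G09570 went the other way, from 44.7 and 33.2 to 68.2 and 60.3 in wild type and from 51.2 and 40.6 to 35.5 and 36.2 in pye-1, an interaction of -1.08 log2 (95% interval -1.96 to -0.21, adjusted p = 0.339).

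HSA32, a heat acclimation protein, had an interaction of 0.99 log2 (95% interval 0.11 to 1.88, adjusted p = 0.392). GI, the clock gene GIGANTEA, was lower in pye-1 on both media, at 313 and 402 in WT +Fe and 401 and 413 in WT -Fe against 139.8 and 104 in pye +Fe and 113 and 134 in pye -Fe. Its interaction was -0.17 (95% interval -0.71 to 0.37) and did not pass (adjusted p = 0.849). The zinc transporter ZIP9 had 0.23 (-0.76 to 1.21), and CPNIFS and ISU1, of iron-sulfur cluster assembly, had -0.26 (-0.85 to 0.33) and -0.08 (-0.35 to 0.20).

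Markers of green tissue, which a root sample should hold little of, and reference genes did not pass the interaction test. Of 9 green tissue markers, 3 were tested, LHCB4.1, PSAN and RCA. Their summed signal was 888 to 920 in WT +Fe, 647 to 674 in WT -Fe, 750 to 802 in pye +Fe and 566 to 629 in pye -Fe, lower without iron in both genotypes. None of the 3 was at the control level, and the lowest single signal was 82.6 for PSAN. Their interactions were 0.21, 0.18 and -0.09 log2 with a median of 0.18. In limma 0 of 3 passed, beside 0.352% of all tested probe sets. An unadjusted p under 0.05 was found for 0 of 3, beside 1790 of all 15922. The part of green tissue in the results above was not tested. The 4 tested reference genes had a median interaction of 0.09 log2, between -0.07 for GAPC2 and 0.10 for AT4G34270 and PEX4, with 0 at an unadjusted p under 0.05.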

How the data were processed

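Whole-root RNA was hybridised to 8 1-colour Affymetrix Arabidopsis arrays, 2 per group. The deposited values are signal intensities on a linear scale (0.0200 to 21897), made by the authors with MAS5, per the submitters' processing notes, which name no version. The mean of each array after trimming 2% at each end was 250.02. No detection calls were used.

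The log2 of the deposited intensity was taken without further normalization. Of 22810 probe sets, 64 were array controls. From the remaining 22746, the dimmest 30% by mean log2 signal (below 23.3) were dropped, leaving 15922. Of the 22746, 13513 name 1 gene, 503 several and 8730 none in the platform annotation, whose Entrez gene IDs were matched to a TAIR10.1 gene table. Of the tested, 8793 name 1 gene. No coordinates or sequences were used.

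The fit was limma 3.58.1 in R 4.3.3 (lmFit with 4 group means and the replicate number as a block, 3 residual and 9.41 prior degrees of freedom, eBayes with an intensity trend), with Benjamini-Hochberg adjustment over all tested probe sets and a threshold of 0.05. It was run on simulated data with known effects, independent normal noise of the fitted spread and no replicate effect. That run checks the code and cannot test the choice of the block or of the intensity trend. Same-numbered arrays deviated together in all 6 pairs of groups (correlation 0.178 to 0.302); the titles give the numbers, and the labels do not say what a shared number stands for. The comparison was defined with the block. With 2 arrays per group no exact permutation test could pass the threshold. The p-values rest on the spread left after group means and block, pooled over the 4 groups. That spread is drawn towards the one of probe sets of like intensity, with 9.41 prior against 3 residual degrees of freedom.

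Named are PYE, up to 20 single-gene probe sets per direction with the smallest p past the threshold (filled to 10 with values only), up to 5 unnamed ones per direction, all tested uptake and regulator genes, and of each other list the passing members or the 2 with the smallest p. AT3G03270, AT5G66985, AT3G27220, PDC2, AT1G34510, EXPA7, EXPA18, AT4G26010, AT5G09570, AT2G17850, AT5G10040 and the reference genes were named after their values were seen. The interaction, the 17 lists (245 loci), the tests and the alternatives were chosen with earlier results of these data known. The lists of phosphate starvation and jasmonate genes had 0 tested members. Alternatives were no replicate block, no filter, a 50% filter, log2 of the value plus 16, signals raised to the control level, quantile normalization, no intensity trend, and leaving out each array. The low-oxygen list without the filter was added after seeing the data.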

Additional observations from a re-analysis of the deposited data

Results flagged for a closer look

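A test of the difference between the 2 genotypes' iron responses singled out 56 probe sets, and these results are given as values without an explanation. The named genes with a higher interaction, in log2, were AT1G19530 at 3.67, AT4G10270 at 3.59, AT3G49960 at 2.46, AT1G33055 at 2.00, AT1G69050 at 1.97, AT5G51010 at 1.87, AT4G27450 at 1.50, MGL at 1.47, AT5G42200 at 1.38 and AT1G03660 at 1.29. Smaller ones were SP1L4 at 1.21, HIS1-3 at 1.15, AT3G01350 at 1.15, AT3G62260 at 1.12, AT1G05340 at 1.07, AT1G32700 at 1.02, AT3G61930 at 0.97, AT2G20920 at 0.89, AT5G45410 at 0.83 and AT5G40510 at 0.74. Of these higher genes, AT4G10270 had 3 arrays at or under the control level. In limma it missed the threshold without the filter (adjusted p = 0.132) and without the replicate block (adjusted p = 0.204). The named genes with a lower one were BCAT4 at -2.38, AT1G21440 at -1.87, AT4G00670 at -1.31, NAI1 at -0.95 and SWEET16 at -0.90. Among probe sets without a gene name, the higher were probe-258487_at at 2.30, probe-251109_at at 1.99, probe-259871_at at 1.88, probe-248332_at at 1.68 and probe-259727_at at 0.97. The lower were probe-251524_at at -1.83, probe-249867_at at -1.57, probe-263706_s_at at -1.46 and probe-252607_at at -1.36. Probe-253502_at was -3.06, with +Fe signals at or under the control level on all 4 arrays, and no direction is read from it, since it was 0.65 with signals raised to that level.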

How the results depend on the processing

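The 56 probe sets (40 higher, 16 lower, 29 of them also past the threshold for iron in wild type) became 14 (8 higher, 6 lower, 6 also past in wild type) without the replicate block. They became 0, 0, 0 and 0 without the intensity trend, where 1517 had an unadjusted p under 0.05. The cause was not tested. Leaving out 1 array gave 13 to 133 probe sets, with 7 to 68 higher, 6 to 65 lower and 9 to 89 also past in wild type. Without pye +Fe replicate 2 there were 13, and without WT +Fe replicate 2 there were 133. The filters, pseudocount, raised signals and quantile normalization gave 42 to 58, within 1.5 times of 56.

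Direction held in every alternative for 55 of the 56. The exception, probe-253502_at, turned from -3.06 to 0.65 log2 with signals raised to the control level. Of the 35 probe sets past the threshold that are described singly above, 25 have a gene name and the others an array ID only. Without the replicate block 21 of the 35 missed it, and not all held when an array was left out. With 2 arrays per group and 3 residual degrees of freedom, a lone array was assumed to vary like the other groups, and dim probe sets near the control level give uncertain log2 values.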
